A study of Mus musculus with 4 samples.

Results

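Peritubular myoid cells are the flat, contractile cells that wrap the seminiferous tubules of the testis. In the testis of a Znhit1 knockout mouse at postnatal day 35 they were taken as the droplet barcodes in which the smooth muscle genes Acta2, Myh11, Tagln and Myl9 together made up at least 1% of the UMIs. UMIs are unique molecular identifiers, each standing for 1 captured RNA molecule. A barcode also had to carry at least 1000 UMIs, at least 500 genes and at most 10% mitochondrial UMIs. It could carry at most 1 UMI of the pericyte genes Rgs5 and Notch3 and at most 3 UMIs of the germ cell genes Ddx4 and Dazl. The members were thus chosen by their measured UMIs of these 8 genes, and this left 534 of the 8121 barcodes that passed the depth filters, or 6.58% (exact binomial 95% interval 6.05 to 7.14). Every gene was then described against the other 7587 of these barcodes.

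The series holds 4 testis libraries made with the Chromium 3' v3.1 kit, 1 for each of control and Znhit1_KO mice at postnatal days 16 and 35. ZNHIT1 belongs to the complex that places the histone variant H2A.Z in chromatin, and the series asks what its loss does to male meiosis. The labels give the knockout by name only, and the allele, the cells that carry the deletion and the number of animals are not given in the sources used here. All values come from the Znhit1_KO library of day 35. Counts of the remaining 3 libraries were not analysed here, and genotypes and ages are not compared. With 1 library there is no test and no p-value, and every 95% interval covers counting error only.

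Myoid cells contract to move sperm and fluid along the tubule, and together with Sertoli cells they lay down its basement membrane. They respond to Desert hedgehog made by Sertoli cells and secrete growth factors for spermatogonial stem cells. In the mouse they form a single layer around the tubule and share much of their contractile apparatus with the smooth muscle and pericytes of blood vessels.

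The 534 myoid barcodes held a median of 3637.5 UMIs (1253 to 6577) and 1743 genes, and mitochondrial genes took a median of 5.71% of UMIs. The other barcodes held a median of 4979 UMIs and 6.45% mitochondrial UMIs, and 4428 of them were germ barcodes with at least 4 UMIs of Ddx4 and Dazl. The doublet caller Scrublet marked 2.89% of all kept barcodes and 2 of the 534 myoid barcodes, and none was removed. Of the myoid barcode sequences, 2 were also listed in the day 16 control library, 0 in the day 16 knockout library and 3 in the day 35 control library. Gm42418, a gene that overlaps ribosomal RNA sequence, took 116114 CPM in myoid barcodes and 34578 CPM elsewhere, where CPM is the UMI count of a gene scaled to the same total of UMIs in each class. Its part in the results was not tested.

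The choice of members fixed the levels of the 4 rule genes, which are given as a description. Acta2, smooth muscle alpha actin, was found in every myoid barcode with 9 to 98 UMIs and a median of 38. Myl9, a myosin light chain, had a median of 8 UMIs, and Myh11, the smooth muscle myosin heavy chain, and Tagln, an actin-binding protein, had medians of 6 UMIs each. All 4 genes were present in 511 barcodes. The share of the 4 genes had a median of 1.73% and reached 4.83%. Just inside the threshold, the 25 barcodes at 1 to 1.1% held 1341 CPM of Tpm2, 2228 CPM of Col4a4 and 919 CPM of Sct. Just outside it, the 23 barcodes at 0.9 to 1% held 1357 CPM, 2408 CPM and 733 CPM of the same genes, so the threshold did not fall at a gap in these 3 genes.

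**Figure D1:**
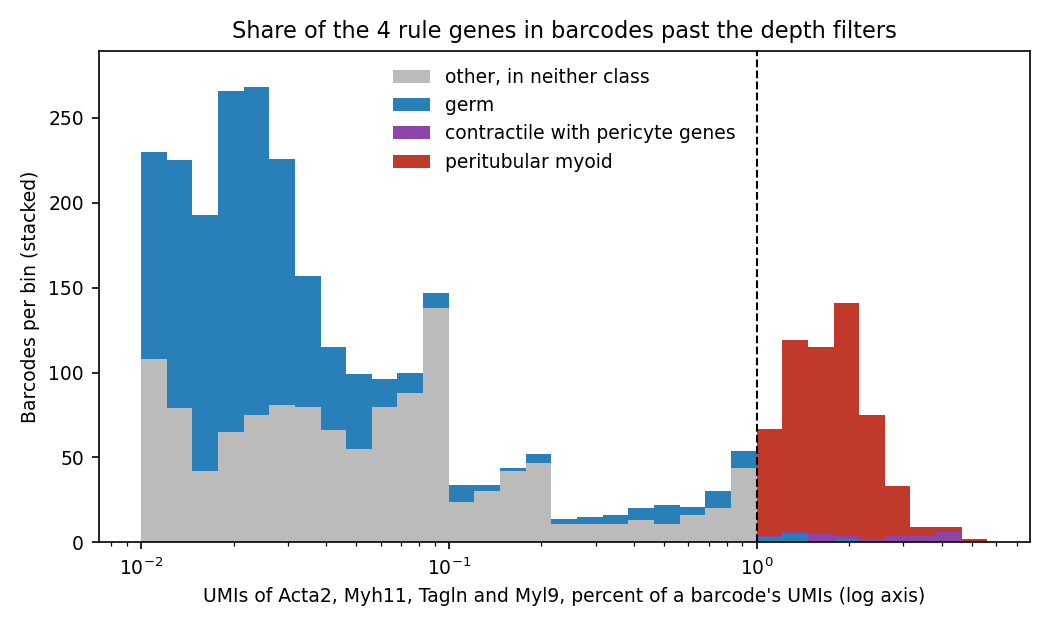
The x axis gives the share of UMIs from Acta2, Myh11, Tagln and Myl9 in a barcode on a log axis, and the y axis the number of barcodes per bin, stacked by class. Barcodes under 0.01% are not drawn, and the dashed line marks the 1% threshold, above which 534 barcodes are myoid, 26 carry pericyte genes and 10 carry germ cell genes.

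The plot of the rule share shows the myoid barcodes as a hump between 1 and 5%, with a shallow stretch of barcodes below the threshold. Of the 570 barcodes at 1% or more, 26 were left out for their Rgs5 and Notch3 UMIs and 10 for their Ddx4 and Dazl UMIs. The label was checked against marker genes that the rule did not use. Lymphocyte markers were at 0 UMIs in myoid barcodes, macrophage markers summed to 89.7 CPM and endothelial markers to 28.0 CPM, each at or below the 138 CPM and 37.3 CPM of germ barcodes. The highest single myoid barcode held 1.12% of macrophage markers. Leydig cell markers summed to 309 CPM, below the 453 CPM of macrophage-marker barcodes, which should lack them. Sertoli cell markers summed to 1576 CPM against 1393 CPM in macrophage-marker barcodes, and 8 genes of early meiotic prophase summed to 429.9 CPM against 433 CPM there and 5768 CPM in germ barcodes. The last difference was in part fixed by the rule's limit on Ddx4 and Dazl. Median depths were 3637.5 UMIs in myoid, 3060 UMIs in macrophage-marker and 5884.5 UMIs in germ barcodes. Levels of Leydig, Sertoli and early prophase genes in myoid barcodes therefore lay at or near the level shared by cells that should lack them. Pachytene markers summed to 313 CPM in myoid and 339 CPM in macrophage-marker barcodes. Spermatogonium markers were higher, at 197 CPM (177 to 217) against 126 CPM (108 to 146) there, with 210 CPM in stromal-marker and 821 CPM in germ barcodes. Markers of 2 other types stood further above the level of macrophage-marker barcodes. Interstitial stromal markers had 2975 CPM against 220 CPM in macrophage-marker barcodes. The 8 pericyte markers outside the rule summed to 229 CPM in myoid barcodes, against 15.4 CPM in macrophage-marker, 38.9 CPM in germ, 98.4 CPM in stromal-marker and 1222 CPM in pericyte-gene barcodes. Most of the myoid sum came from Mcam, an adhesion molecule of vessel walls and smooth muscle, at 133 CPM.

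Against all other barcodes, 18617 genes had at least 20 UMIs over both sides and were compared. The 8 genes of the rule were left out of these counts. In myoid barcodes 2290 genes (12.3% of those compared) were higher by 2-fold or more and 6154 (33.1%) were lower by 2-fold or more, with a median log2 ratio of -0.44 over all genes. Most of the other side was germ barcodes. Barcodes outside that class can still be germ cells with few UMIs of Ddx4 and Dazl. Those in no class at all had 1321 CPM of early prophase genes, against 433 CPM in macrophage-marker barcodes. Against the barcodes outside the germ class alone, 14980 genes were compared. Of these, 1371 (9.15%) were higher by 2-fold or more and 3320 (22.2%) lower, with a median log2 ratio of -0.32. The rule and these ratios come from the same cells, so the ratios describe the barcodes and test nothing. Ratios moved with the choice of barcodes. That of Col4a4, a collagen gene, was 47.9 here, 19.2 with the rule genes at 2% or more, and 99.1 without the other barcodes at 0.25 to 1% of the rule genes, an alternative chosen after seeing the data. For Hhip, an inhibitor of hedgehog, the same 3 values were 56.6, 23.4 and 164.

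The contractile apparatus was higher as a whole. Of its 23 genes outside the rule, 21 were measured and 21 were at least 2-fold higher (all genes 12.3%), with a median log2 ratio of 4.33 against -0.44 over all genes. The list was chosen with earlier results known, and it names genes that go together with the rule genes in smooth muscle. Myl6, the myosin essential light chain, had the highest level, 3769 CPM (3683 to 3856), with a median of 13 UMIs in a barcode, and was 10.9-fold above the other barcodes. Tpm2, beta tropomyosin, was found in 533 of 534 barcodes with a median of 7 UMIs and stood at 2133 CPM (2069 to 2199) against 37.9 CPM elsewhere. Cnn1, the actin-binding calponin of smooth muscle, had 468 CPM (438 to 500) against 6.93 CPM, a ratio of 67.6 (59.6 to 76.8). Actg2, the gamma actin of enteric smooth muscle, had 195 CPM and a ratio of 66.4 (54.7 to 81.0), but 43.8% of barcodes showed a UMI of it. Des, the intermediate filament protein desmin, had 282 CPM (258 to 306) and a ratio of 36.1. These levels stood above those of germ barcodes, where Acta2 itself had 106 CPM and was seen in 23.0% of barcodes, or in 5.42% after each barcode was thinned to 1000 UMIs.

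**Figure D2:**
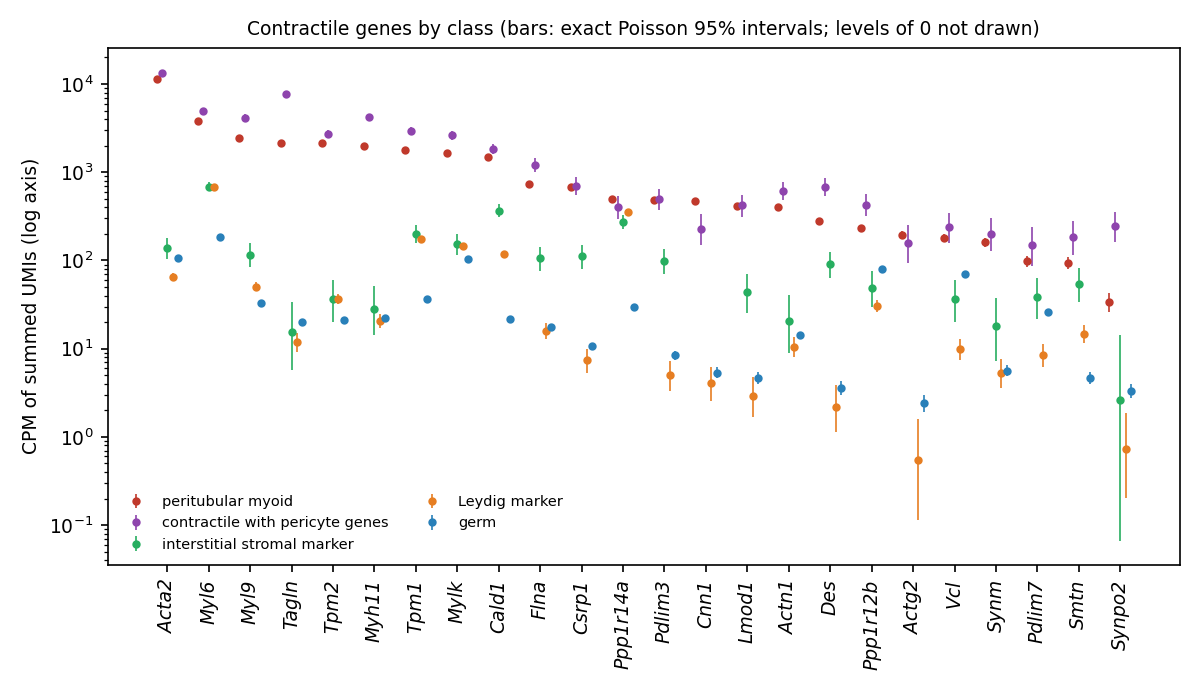
The x axis lists genes of the contractile apparatus, the 4 rule genes included, and the y axis gives CPM of UMIs summed over a class on a log axis. Points are 5 classes of barcodes with exact Poisson 95% intervals. Myoid barcodes and barcodes with pericyte genes lie near each other and above the stromal, Leydig and germ classes, as for Tpm2 at 2133 CPM in myoid and 21.3 CPM in germ barcodes.

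Among the 6 actin genes, Acta2 supplied 73.4% of the actin UMIs of myoid barcodes, and the nonmuscle actins Actb and Actg1 supplied 17.2% and 8.09%. Elsewhere Acta2 supplied 7.78% of the actin UMIs and Actb 42.1%, and Actg1 supplied most of the rest. Acta2 is a rule gene and gave 63.1% of the rule UMIs of myoid barcodes. Its actin share and the contrast with other barcodes were thus largely set by the choice of members. The 3' tags count 1 UMI per molecule, so no scaling by gene length was made. The cardiac actin Actc1 had 0 UMIs in myoid barcodes, which allows up to 3 UMIs, and the skeletal actin Acta1 had 6 UMIs. Genes better known from heart and skeletal muscle were mixed. Of 20 listed after values were seen, 15 were measured, of which 11 were higher by 2-fold or more (all genes 12.3%) and 1 was lower (all genes 33.1%). In myoid barcodes 6 of the 20 had at most 3 UMIs. Tnnt2, the cardiac form of the thin-filament protein troponin T, had 986 CPM (942 to 1032), was found in 92.1% of barcodes and was 52.6-fold higher than elsewhere. Casq2, the calcium store protein calsequestrin of cardiac muscle, had 275 CPM and a ratio of 58.2 (49.8 to 68.2). Tnnt1, the slow skeletal troponin T, had 118 CPM and a ratio of 30.7. Fhl2, a LIM protein abundant in heart, had 1538 CPM and a ratio of 44.6, and Sh3bgr had 441 CPM and a ratio of 39.6. Tnnc1, the troponin C that partners Tnnt2 in the heart, had 2 UMIs in all 534 barcodes, Ryr2, the cardiac calcium release channel, had 3 UMIs, and Myl7 and Nppa had 0. Pln, phospholamban, had 16 UMIs, of which 9 were in a sub-cluster of 11 barcodes described with the sub-clusters. Tnnt2 and Casq2 came from the rule for named genes, whereas Tnnt1, Tnnc1, Fhl2 and Sh3bgr were picked once values were known.

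The CArG box is the 10-base element that serum response factor binds, and genes of smooth muscle are known for it. It reads CC, then 6 bases that are A or T, then GG, and is searched alike on both strands. In the RefSeq promoter table for GRCm38.p6, which gives 250 bases before and 50 bases after a start site, 23 of the 27 contractile genes had an entry, with 27 promoters. Of those promoters, 5 held a CArG box (18.5%), against 535 of 32851 promoters in the whole table (1.63%). Allowing 1 of the 6 central bases to be G or C, a form chosen after the Acta2 window had been seen, gave 8 of 27 (29.6%) against 3280 of 32851 (9.98%). Windows of 30 bases are shown for the strict matches of Myl9, Myl6 and Vcl, which are expressed in the myoid barcodes, and for both matches of Acta2 as the rule gene of highest level, with the match in capitals and each window read along the strand of its gene.
Acta2 at chr19:34255438-34255467, minus strand, 1 central G or C: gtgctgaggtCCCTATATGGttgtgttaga
Acta2 at chr19:34255388-34255417, minus strand, 1 central G or C: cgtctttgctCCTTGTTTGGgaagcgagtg
Myl9 at chr2:156775293-156775322, plus strand: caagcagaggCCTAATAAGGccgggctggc
Myl6 at chr10:128493040-128493069, minus strand: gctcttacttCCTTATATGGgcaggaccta
Vcl at chr14:20929161-20929190, plus strand: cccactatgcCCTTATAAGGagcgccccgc
In that table the matches of Acta2 begin 84 and 34 bases before its start site, that of Myl9 at 161 bases, that of Myl6 at 50 bases and that of Vcl, the adhesion protein vinculin, at 227 bases. The levels of the 4 genes in myoid barcodes differed widely, from 11284 CPM for Acta2 to 180 CPM for Vcl. The other 2 strict matches were in Actc1 and Acta1, the actins at 0 and 6 UMIs here. Matches with 1 central G or C that are not shown were in Pdlim3, Synm, Actc1 and Acta1 and at a second site of Myl9. A match is a run of letters in a window, and binding was not measured.

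The coactivator that works with serum response factor was itself among the higher genes. Myocd, myocardin, had 114 CPM (99.5 to 130) against 3.38 CPM elsewhere, a ratio of 33.7, and was seen in 29.4% of myoid barcodes. Srf, serum response factor, had 21.3 CPM and a ratio of 1.56 (1.11 to 2.13), within 2-fold. Of 18 measured genes of the smooth muscle transcription list, 10 were higher by 2-fold or more (all genes 12.3%) and 2 lower (all genes 33.1%). Their median log2 ratio was 1.14. Nr2f2, the nuclear receptor COUP-TFII of steroidogenic and mesenchymal cells, had the highest level at 763 CPM and a ratio of 8.51. Prrx1, a homeobox gene of mesenchyme, had 79.9 CPM and a ratio of 15.2. Tcf21, a factor of the stromal lineage chosen after its value was seen, had 473 CPM in myoid and 489 CPM in stromal-marker barcodes. The stromal class was chosen on Tcf21 among other markers, which favoured its level there. Foxf1, a forkhead gene of visceral smooth muscle, had 1 UMI.

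Genes for calcium handling and cyclic nucleotide signalling were mixed. Of 25 measured, 13 were higher by 2-fold or more (all genes 12.3%) and 2 lower (all genes 33.1%), with a median log2 ratio of 1.53. Prkg1, the cGMP-dependent kinase that relaxes smooth muscle, had the highest level at 408 CPM (380 to 437) and a ratio of 15.8. Kcnmb1, the smooth muscle subunit of the large potassium channel, had 19 UMIs, 9.85 CPM and a ratio of 40.5 (18.7 to 91.6). Ryr3, a calcium release channel, had 4 UMIs. Nalcn, a sodium leak channel, had 237 CPM in myoid barcodes against 8.79 CPM in the barcodes with pericyte genes, which is 1 UMI there.

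Among receptors, 9 of 22 measured genes were at least 2-fold higher (all genes 12.3%) and 3 lower (all genes 33.1%), with a median log2 ratio of 0.82. Ednra, the endothelin receptor that drives contraction, had 216 CPM and a ratio of 26.4, a log2 ratio of 4.72. Against stromal-marker barcodes the largest log2 ratio of any measured receptor was 1.14, so Ednra was much closer there. In that comparison 2 of 19 receptors were at least 2-fold higher (all genes 11.6%) and 5 lower (all genes 8.50%), with a median of -0.45. Adra1b, an adrenergic receptor, had 19 UMIs, 9.85 CPM and a ratio of 32.4 (15.6 to 68.6). Pdgfra, a platelet-derived growth factor receptor, had 254 CPM in myoid and 720 CPM in stromal-marker barcodes. It is among the markers that chose the stromal class, which favoured its level there. Oxtr, the oxytocin receptor, had 4 UMIs in myoid barcodes and 91.5 CPM in Leydig-marker barcodes. Lhcgr, the luteinizing hormone receptor, had 17.6 CPM in myoid barcodes, 32.2 CPM in macrophage-marker barcodes and 1128 CPM in Leydig-marker barcodes, so its myoid level was at background.

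The hedgehog pathway had a ligand outside the myoid barcodes and its response genes within them. Of 11 genes, 8 were at least 2-fold higher (all genes 12.3%) and 3 lower (all genes 33.1%), with a median log2 ratio of 2.43. Dhh, the ligand Desert hedgehog, had 6 UMIs in myoid barcodes, 3.11 CPM against 4.42 CPM in germ barcodes, and 70.9 CPM in Sertoli-marker barcodes. Its ratio to all other barcodes, 0.50, had an interval of 0.18 to 1.09. Ptch1, the hedgehog receptor and itself a transcriptional target, had 432 CPM (403 to 462) in myoid barcodes and between 12.7 and 90.6 CPM in stromal, Leydig, Sertoli, macrophage and germ barcodes and in those with pericyte genes. Gli1, the transcription factor induced by the pathway, had 43.0 CPM and a ratio of 33.2 (23.7 to 46.7). Hhip, a hedgehog-binding inhibitor that the pathway induces, had 98.5 CPM and a ratio of 56.6 (43.6 to 73.9). Gas1, Boc, Gli2 and Smo were also higher than in all other barcodes, at 42.0, 65.3, 52.9 and 59.1 CPM in that order. Cdon, a co-receptor, and Gli3, a transcription factor that often represses targets, were lower with Dhh, at 6.22 and 14.5 CPM. Gli3 changed side with the comparison, at a ratio of 0.39 against all other barcodes and 1.96 against those outside the germ class, and Smo then had a ratio of 1.58. The list as a whole was not above the stromal-marker barcodes, with a median log2 ratio of -0.51 over 9 measured genes. Of these 9, 4 were at least 2-fold higher (all genes 11.6%) and 1 lower (all genes 8.50%). Against Leydig-marker barcodes 7 of 10 were higher (all genes 18.2%) and 1 lower (all genes 15.3%), with a median of 2.90.

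Growth factors of the spermatogonial niche were few in UMIs. Gdnf, the glial cell line-derived factor that sustains spermatogonial stem cells, had 21 UMIs in 534 barcodes, 10.9 CPM (6.74 to 16.6), and a ratio of 9.78 (5.62 to 16.4). A Gdnf UMI was seen in 3.93% of myoid barcodes and 0.587% of germ barcodes, and after thinning in 0.936% and 0.113%. Sertoli-marker barcodes had 8.71 CPM of Gdnf, an interval that overlaps the myoid one. Macrophage-marker, stromal-marker and pericyte-gene barcodes had 0 UMIs of Gdnf. In stromal-marker and pericyte-gene barcodes, 0 UMIs allows up to 9.55 and 32.4 CPM in that order. These limits reach the myoid interval, so the absence of UMIs does not show a lower level of Gdnf in either class. Csf1, a growth factor for macrophages and spermatogonia, had 75.2 CPM (63.4 to 88.5), below the 92.4 CPM of Leydig and 127 CPM of stromal marker barcodes, and its ratio of 3.36 was 1.14 against barcodes outside the germ class. Fgf2 had 73.1 CPM and a ratio of 16.7, and Bmp4 had 36.8 CPM and a ratio of 16.5. Ptn, pleiotrophin, chosen after its value was seen, had 192 CPM and a ratio of 9.07. Igfbp7, an IGF binding protein, had the highest level of the list, 1761 CPM with a median of 6 UMIs, but stromal-marker barcodes had 2927 CPM and its ratio of 4.98 was 1.72 against barcodes outside the germ class. In all, 16 of 35 measured genes of this list were at least 2-fold higher (all genes 12.3%) and 10 lower (all genes 33.1%). Their median log2 ratio was 0.43. Against barcodes outside the germ class 7 of 33 (all genes 9.15%) were higher and 14 (all genes 22.2%) lower. Pdgfb, the ligand for mural cells, was lowest with 1 UMI.

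The retinoic acid genes were mixed, with Cyp26b1 and Rbp4 highest in ratio. Retinoic acid starts the differentiation of spermatogonia. Cyp26b1, the enzyme that degrades it, had 1510 CPM (1456 to 1566), was found in 94.2% of myoid barcodes with a median of 5 UMIs, and was 31.1-fold higher than elsewhere. Stromal-marker barcodes had 981 CPM of Cyp26b1, and barcodes with pericyte genes had 132 CPM. Rbp4, the retinol carrier, had 500 CPM and a ratio of 8.97 (8.33 to 9.66), with 23.3 CPM in stromal-marker and 3.87 CPM in Leydig-marker barcodes. Aldh1a2, which makes retinoic acid, had 15 UMIs, 7.78 CPM against 69.9 CPM elsewhere, while Aldh1a1, another such enzyme, had 440 CPM against 809 CPM elsewhere. Cyp26a1 and Cyp26c1, relatives of Cyp26b1, had 2 and 0 UMIs. Crabp1, a binding protein of differentiating spermatogonia, had 3.11 CPM against 88.2 CPM in germ barcodes. Of 17 measured genes, 4 were at least 2-fold higher (all genes 12.3%) and 5 lower (all genes 33.1%). Their median log2 ratio of -0.53 was close to the -0.44 of all genes. Against barcodes outside the germ class 2 of 16 were higher and 8 lower, where 9.15% and 22.2% of all genes were.

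**Figure D3:**
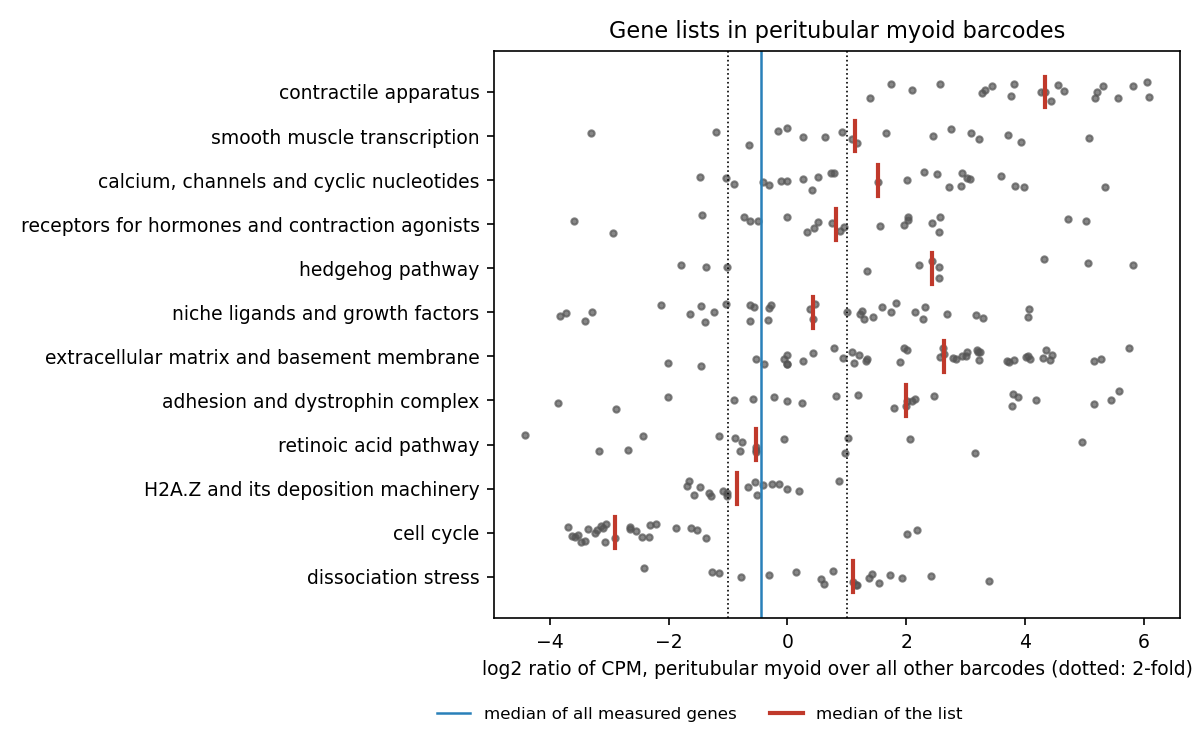
Each point is a measured gene of the list named on the y axis, and the x axis gives the log2 ratio of its CPM in myoid barcodes over all other barcodes. Red bars are list medians, the blue line is the median of all genes at -0.44, dotted lines mark 2-fold, and genes with 0 UMIs whose bound reached 1 are drawn at 0. The contractile list sits highest with a median of 4.33 and the cell cycle list lowest with -2.89.

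Against barcodes outside the germ class, where the median over all genes was -0.32, the median log2 ratio was 3.43 for the contractile list, 0.25 for smooth muscle transcription, 1.05 each for the calcium and hedgehog lists, 0.15 for receptors, 1.61 for matrix and 1.26 for adhesion genes. The receptor list then had 6 of 22 genes higher and 5 lower, and the matrix list 27 of 44 higher and 5 lower. Over all genes 9.15% were higher and 22.2% lower, so the lower receptors were near the share of all genes.

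Extracellular matrix genes were mostly higher, 33 of 45 by at least 2-fold (all genes 12.3%) and 2 lower (all genes 33.1%), with a median log2 ratio of 2.64. Sparc, a matrix-binding glycoprotein, had the highest level at 2650 CPM, yet stromal-marker barcodes had 2671 CPM and the ratio of Sparc against barcodes outside the germ class was 1.40. Lox, which crosslinks elastin and collagen, had 29.6 CPM and a ratio of 54.0 (33.6 to 88.9), and Eln, elastin itself, had 307 CPM and a ratio of 39.0 (34.2 to 44.4). Their log2 ratios were 5.76 and 5.28. Against stromal-marker barcodes the largest log2 ratio of any measured matrix gene was 2.76, so Eln was much closer there. Lox had 57 UMIs in myoid barcodes, and its value there can be a bound, as a class at 0 is set to 3 UMIs. Loxl2, a relative of Lox, had 6.74 CPM and was 4.02-fold lower. Fn1, fibronectin, chosen after its value was seen, had 14.5 CPM in myoid barcodes and 39.9 CPM elsewhere, but its ratio was 0.95 against barcodes outside the germ class.

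The basement membrane collagens are made as trimers of type IV chains, of which mammals have 6. The chains Col4a3 and Col4a4, with Col4a5, form the network known from the kidney glomerulus, where their mutations cause Alport syndrome. Col4a4 had 2253 CPM (2187 to 2321) in myoid barcodes, was found in 97.6% of them with a median of 8 UMIs, and had 47.0 CPM elsewhere. Col4a3 had 1148 CPM (1100 to 1196), was found in 92.5% with a median of 4 UMIs, and had a ratio of 51.2 (47.6 to 55.1). Col4a1 and Col4a2, the chains of the common network, had 662 and 396 CPM, Col4a5 had 333 CPM and Col4a6 had 73.1 CPM. Col4a3 and Col4a4 together supplied 69.9% of the type IV collagen UMIs of myoid barcodes, against 40.1% in stromal-marker, 31.0% in pericyte-gene and 11.9% in Leydig-marker barcodes. Germ barcodes gave 50.9% and macrophage-marker barcodes 63.8%, at 27.6 and 44.6 CPM of Col4a4. Col4a3 was 8.70-fold (5.27 to 15.6) and Col4a4 6.93-fold (5.02 to 9.85) higher in myoid than in pericyte-gene barcodes. Col4a3 was in the rule for named genes and its partners were picked once values were known.

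**Figure D4:**
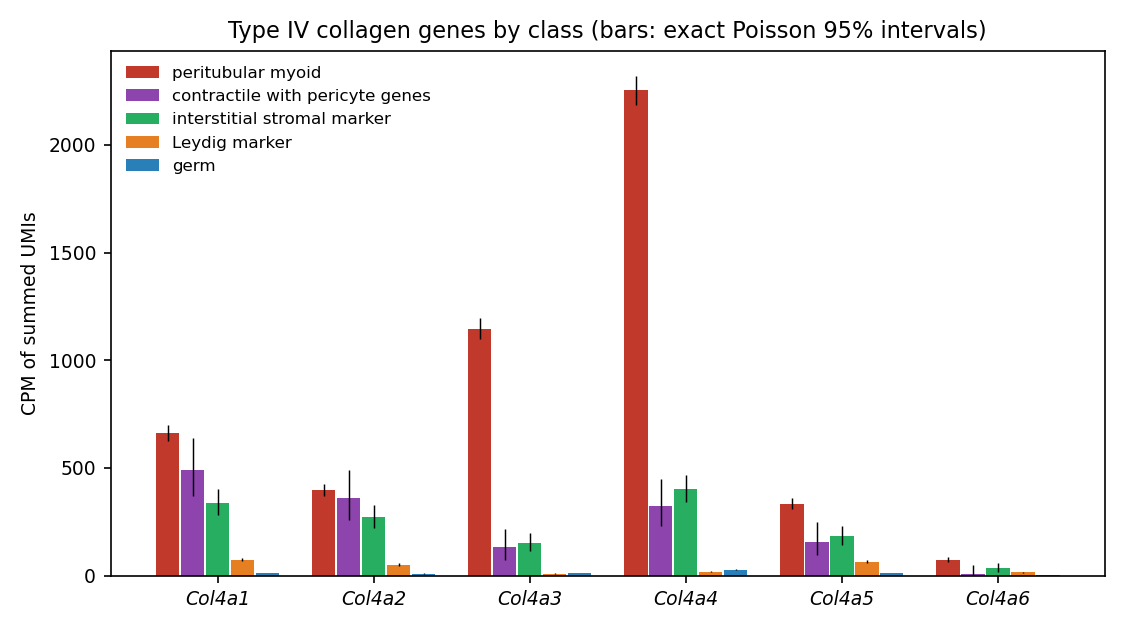
The y axis gives CPM of UMIs summed over each of 5 classes for the 6 type IV collagen genes on the x axis, with exact Poisson 95% intervals. Col4a4 at 2253 CPM and Col4a3 at 1148 CPM are the tallest bars, both in myoid barcodes, while Col4a1 and Col4a2 are closer between myoid and pericyte-gene barcodes.

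Col4a3 and Col4a4 lie head to head on mouse chromosome 1 and are read in opposite directions. In the mm10 annotation Col4a4 spans chr1:82448423-82586849 on the minus strand and Col4a3 spans chr1:82586921-82722059 on the plus strand. Their outermost annotated start sites are 72 bases apart, and the 71 bases between them are shown because the ratios of these neighbours were 47.9 and 51.2. The sequence is read along the strand of Col4a4 from the RefSeq promoter table for GRCm38.p6.
Between Col4a4 and Col4a3 at chr1:82586850-82586920, minus strand: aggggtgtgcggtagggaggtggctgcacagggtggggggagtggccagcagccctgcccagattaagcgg
The stretch is 69.0% G or C, has 2 CG pairs and holds 0 CArG boxes, also with 1 central G or C allowed. Whether the 2 genes share control elements was not measured.

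Among laminins, Lamc3, a gamma chain, had 458 CPM in myoid and 264 CPM in stromal-marker barcodes, and Lama2, the alpha chain of muscle basement membrane, had 589 and 771 CPM. Both were picked once values were known. Of 23 adhesion and dystrophin complex genes, 14 were at least 2-fold higher (all genes 12.3%) and 3 lower (all genes 33.1%), with a median log2 ratio of 2.0. Dmd, dystrophin, which ties actin to the basement membrane in muscle, had the highest level at 981 CPM (937 to 1026) and a ratio of 14.7. Itga8 and Cdh11, an integrin and a cadherin of mesenchyme, had 132 and 76.2 CPM and ratios of 47.8 and 43.8. Sgcd, delta sarcoglycan, had 1 UMI.

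Outside the lists, genes with large ratios included the hormone gene Sct and the transporter gene Slc38a5. Sct, the peptide hormone secretin, chosen after its value was seen, had 862 CPM (821 to 904), was seen in 86.9% of myoid barcodes with a median of 3 UMIs and at most 17, and was 48.0-fold (44.2 to 52.2) above the other barcodes. Stromal-marker barcodes had 119 CPM of Sct and germ barcodes 9.49 CPM. Slc38a5, an amino acid transporter, had 550 CPM (518 to 584) and a ratio of 49.7. Itgbl1, an integrin-like secreted protein, had 547 CPM and a ratio of 56.1, and Fibin had 138 CPM and a ratio of 67.7 (53.6 to 86.0), the largest of the genes with at least 100 UMIs in myoid barcodes apart from the rule gene Acta2. Sct was not among the 20 largest ratios. Besides Slc38a5, Itgbl1 and Fibin, those included Endou, an endoribonuclease, at 87.1 CPM, and Sytl2 at 95.4 CPM. Car14, a carbonic anhydrase, at 155 CPM was also among them. So were Hr, a corepressor of nuclear receptors, at 79.9 CPM and Tcf23, a transcription factor, at 78.8 CPM. Endou was seen in 20.2% of myoid barcodes and Sytl2 in 26.8%, so each of these low genes was read from a minority of the barcodes, Car14 at 41.9% included.

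The cell cycle list was lower almost throughout against all other barcodes, most of which were germ barcodes. Of 27 genes 25 were at least 2-fold lower (all genes 33.1%), with a median log2 ratio of -2.89. Aurka, a mitotic kinase, had 4.67 CPM against 80.6 CPM in germ barcodes and 7.32 CPM in macrophage-marker barcodes. The 2 higher genes were Ccnd2, a D-type cyclin, at 281 CPM with a ratio of 4.52 and Cdkn1b, an inhibitor of cyclin-dependent kinases, at 64.3 CPM with a ratio of 4.04. Against barcodes outside the germ class, 14 of 27 were at least 2-fold lower (all genes 22.2%) and 1 higher (all genes 9.15%), and the ratio of Cdkn1b was 1.68. The like classes were closer. Against pericyte-gene barcodes 2 of 14 were lower and 2 higher, with a median log2 ratio of 0.04. Against stromal-marker barcodes 3 of 19 were lower and 0 higher (median -0.26), and against Leydig-marker barcodes 3 of 25 were lower and 4 higher (median 0.54). All genes had 12.3%, 8.50% and 15.3% lower in these 3 comparisons, and 12.3%, 11.6% and 18.2% higher.

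Znhit1, the targeted gene, had 24 UMIs in the 534 myoid barcodes, 12.4 CPM (7.97 to 18.5), against 3.19 CPM in germ and 11 CPM in macrophage-marker barcodes. A 3' tag does not show whether a deleted part of the transcript is missing, so this count checks neither the knockout nor its cell type. H2afz, which encodes H2A.Z.1, had 487 CPM (457 to 520), a median of 2 UMIs in a barcode and was 2.43-fold lower than in all other barcodes, with 1359.6 CPM in germ barcodes. H2afv, which encodes H2A.Z.2, had 381 CPM and a ratio of 0.68. Of 18 genes of H2A.Z and its deposition machinery, 9 were lower by 2-fold or more (all genes 33.1%) and 0 higher (all genes 12.3%) against all other barcodes. Their median log2 ratio was -0.84, against -0.44 over all genes. Against barcodes outside the germ class 1 of 18 was lower (all genes 22.2%), and H2afz had a ratio of 0.64. Ep400, a chromatin remodeller and the lowest of the list at 3.23-fold lower against all other barcodes, then had a ratio of 0.83.

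Genes that respond to tissue dissociation were present. Of 19, 10 were at least 2-fold higher (all genes 12.3%) and 3 lower (all genes 33.1%) against all other barcodes. The median log2 ratio was 1.11 there and -0.30 against barcodes outside the germ class. Junb, an immediate early gene, had 1137 CPM in myoid barcodes, 2097 CPM in stromal-marker and 1342 CPM in macrophage-marker barcodes. Hspb1, a small heat shock protein abundant in muscle, had 1027 CPM (982 to 1073) and a ratio of 10.5, with 98.4 CPM in stromal-marker and 1085 CPM in Sertoli-marker barcodes. Hspa1a, an inducible chaperone, had 64.8 CPM. Hsp90aa1, a chaperone high in germ cells, was 5.33-fold lower at 522 CPM, and 1.23-fold lower against barcodes outside the germ class.

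The class nearest to the myoid barcodes by the rule was the 26 barcodes that met the contractile threshold but carried at least 2 UMIs of Rgs5 and Notch3. Against these, 9178 genes had enough UMIs, of which 1128 (12.3%) were at least 2-fold higher in myoid barcodes and 1132 (12.3%) at least 2-fold lower, with a median log2 ratio of 0. Markers of other types also differed: Leydig cell markers summed to 1353 CPM in the 26 barcodes against 309 CPM in myoid barcodes, macrophage markers to 492 against 89.7 CPM and endothelial markers to 299 against 28.0 CPM, and their part in this comparison was not tested. The contractile list was close, with 1 of 21 genes higher and 2 lower and a median log2 ratio of -0.40. Calcium and channel genes were lower in myoid barcodes, with 13 of 21 at least 2-fold lower, 0 higher and a median log2 ratio of -1.39. Matrix genes went the other way, with 17 of 35 higher and 4 lower and a median log2 ratio of 0.77, and 5 of 9 hedgehog genes were higher and 0 lower. Among genes with at least 100 UMIs on the higher side, the limit for the genes named in this and the next 2 comparisons, those most above the pericyte-gene barcodes after Nalcn were Tceal3, Dpep1, Fam229a and Prkcb, a protein kinase C, whose ratio was 16.7 (4.61 to 138), each with 1 or 2 UMIs in the 26 barcodes. Furthest below within that limit were Crip1 at 42.5 CPM against 1837 CPM, Tm4sf1 at 28.5 CPM against 1090 CPM, Rcan2, a calcineurin regulator, at 29.6 CPM against 905 CPM, Mustn1, a muscle protein, at 45.1 CPM against 905 CPM, and the muscle transcription factor Mef2c at 147 CPM against 1151 CPM.

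Against the 163 stromal-marker barcodes, which had Dcn and other fibroblast genes at 1% or more, 9632 genes were compared. At least 2-fold higher in myoid barcodes were 1116 (11.6%) and lower were 819 (8.50%), with a median log2 ratio of -0.07. Of 21 contractile genes 19 were higher and 0 lower, with a median log2 ratio of 2.80. Matrix genes were now more often lower, with 12 of 39 at least 2-fold lower and 5 higher and a median log2 ratio of -0.36. The matrix list holds Dcn, Lum, Col1a1 and Col1a2, which are among the markers that chose the stromal class. Part of the lower count was therefore set by that choice. Casq2 with 1 UMI there, Nrxn3, a synaptic adhesion gene, with 1 UMI, Ltbp2, a latent TGF-beta binding protein, with 1 UMI, Cnn1 with 0 UMIs and Tpm2 at 36.2 CPM led the higher side. Clec3b at 1.56 CPM against 903 CPM, Entpd2, Igfbp4, Efemp1 and the chemokine Cxcl12 at 13 CPM against 427 CPM led the lower side. The gap in Cnn1 was at least 60.3-fold, taking 3 UMIs as the floor for the class.

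Against the 580 Leydig-marker barcodes, 12050 genes were compared, 2197 of them at least 2-fold higher in myoid barcodes (18.2%) and 1842 lower (15.3%), with a median log2 ratio of 0.08. Contractile genes were higher for 20 of 21 and matrix genes for 26 of 37, with median log2 ratios of 5.26 and 2.12. Actg2, Gli2, Ecscr, Tcf23 and Fibin led the higher side, each with 1 to 4 UMIs in Leydig-marker barcodes. Klhl14, Nnmt, Rbm47, Tm7sf2, a sterol reductase, and Kcnd2, a potassium channel at 4.15 CPM against 337 CPM, led the lower side.

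The spread among myoid barcodes was measured after each was thinned to 1000 UMIs. Over 3328 genes with a mean of at least 0.05 UMIs, the ratio of variance to mean had a median of 1.01, close to the value 1 of counting noise, and a 95th percentile of 1.17. At such low means this ratio stays near 1 also where barcodes differ, so it does not show that they are alike. The largest ratios were those of Gm42418 at 8.65 and of the nuclear RNA Malat1 at 6.07, followed by the rule genes Tagln at 2.09 and Acta2 at 1.91. Mgp, matrix Gla protein, had 1.68, and the immediate early genes Junb and Fos had 1.67 and 1.53.

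Clustering of the 534 barcodes without the rule genes gave 5 sub-clusters of 179, 136, 106, 102 and 11 barcodes, and they were left unnamed. The 4 larger ones held 1959 to 2543 CPM of Col4a4 and 750 to 967 CPM of Sct. They differed in Malat1, from 5578 CPM in the largest to 18171 CPM in the sub-cluster of 136, and in Fos, from 148 CPM in the sub-cluster of 102 to 1260 CPM in that of 106. The sub-cluster of 106 also held 1048 CPM of Mgp against 513 to 576 CPM in the other 3, and was led by Serpina3n, C7 and Col15a1.

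The 11 barcodes of the smallest sub-cluster stood apart. They had 0 UMIs of Col4a3, Col4a4, Sct, Mgp, Ptch1, Itgbl1 and Slc38a5 among 39612 UMIs, where 3 UMIs would be the limit that 0 allows, while the other 523 barcodes had 2300 CPM of Col4a4. Cyp26b1 had 1 UMI, or 25.2 CPM against 1542 CPM, and Pdgfra also had 1 UMI. Rcan2 stood at 1338 CPM against 2.12 CPM, Crip1 and Mustn1 at 1641 CPM each against 9.0 and 11.6 CPM, and Tm4sf1 at 1010 CPM against 7.94 CPM. Their rule genes were high, with a median share of 3.68%, and they held 2 UMIs of Rgs5 and 3 of Notch3, so the rule kept them. Rcan2, Crip1, Mustn1 and Tm4sf1 were also among the 5 genes named as lowest against the pericyte-gene class. Of 16 myoid barcodes with at least 3 UMIs of Mustn1, Crip1, Tm4sf1 and Rcan2 together, 11 had 0 UMIs of Col4a3, Col4a4 and Sct, and all 11 were in this sub-cluster. Among the 492 barcodes with 0 UMIs of the former 4 genes, the least was 2 UMIs of the latter 3 and the median 15. The sub-cluster, a product of the clustering, gets no test, and which cell type it represents was not tested.

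**Figure D5:**
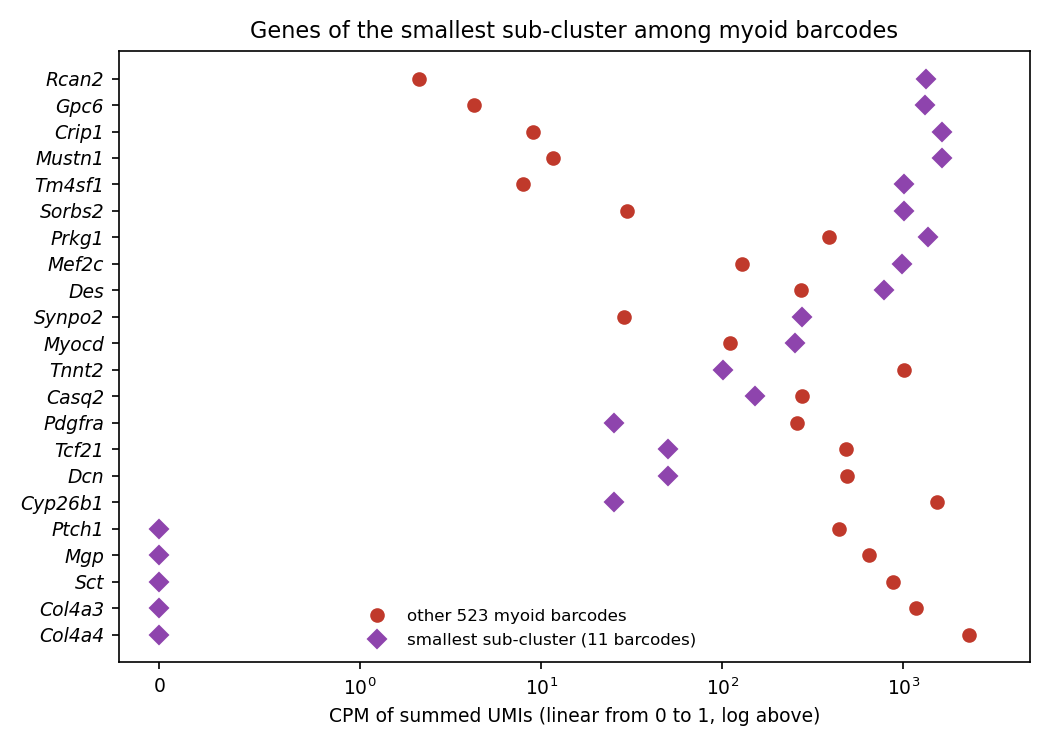
The x axis gives CPM of summed UMIs, linear from 0 to 1 and log above, for the genes on the y axis. Diamonds are the 11 barcodes of the smallest sub-cluster and circles the other 523 myoid barcodes. Col4a4, Col4a3, Sct, Mgp and Ptch1 are at 0 in the smallest sub-cluster, and Rcan2, Crip1, Mustn1 and Tm4sf1 are at 2.12 to 11.6 CPM in the other barcodes.

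Leaving out the 11 barcodes, an alternative chosen after seeing the data, left the list counts against all other barcodes within 1.5 times of their values, and the median log2 ratio of the niche list went from 0.43 to 0. The ratio to all other barcodes went from 2.63 to 0.73 for Tm4sf1, from 1.53 to 0.11 for Rcan2, and from 14.0 to 3.62 for Mustn1, and Crip1, within 2-fold before, had a ratio of 0.26. Against the pericyte-gene barcodes, 1117 genes were then higher by 2-fold or more and 1120 lower, 13 of 21 calcium and channel genes were lower, 17 of 35 matrix genes and 5 of 9 hedgehog genes were higher, and the log2 ratio of Rcan2 went from -4.94 to -8.74 and that of Crip1 from -5.43 to -7.67.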

How the data were processed

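The authors deposited UMI counts as whole numbers, not normalised, and the file headers name Cell Ranger 7.1.0. STAR and mm10 stand in the submitters' processing notes. No source used here gives the cell calling. Free RNA was not subtracted. Barcode lists of the other libraries served only to count shared barcodes.

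The members, the lists and the markers were chosen with earlier results of these data known. UMIs were summed over a class and scaled to CPM. Levels have exact Poisson 95% intervals, ratios conditional binomial ones, and shares Clopper-Pearson ones. Genes needed 20 UMIs over both sides, and called means a ratio of at least 2 or at most 0.5. A side at 0 was set to 3 UMIs per class. Such a bound was not allowed to cross 1, a choice made after values were seen, when genes without myoid UMIs had come out as higher. Marker classes had their markers at 1% of UMIs or more, the 4 rule genes under 1%, no other type at 1% and at most 3 UMIs of Ddx4 and Dazl.

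Always named were the rule genes, Znhit1, H2afz, H2afv, Gdnf, Csf1, Gli1, Ptch1, Dhh, Pdgfra, Cyp26b1, Aldh1a2, Myocd, Srf, Des and Actg2. The rule added, in each of 12 lists, the highest CPM, the 2 largest ratios and the smallest, then the 20 largest ratios among genes with 100 UMIs, and 5 genes in each direction against each of 3 like classes. Not every gene taken is described, and some results are not reported here. Vcl, Gas1, Boc, Gli2, Smo, Gli3, Oxtr, Mgp, Fos and the genes of the sub-clusters were added with values in view.

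Of 32285 genes, 32235 matched GENCODE vM21 for mm10. Leiden clustering at resolution 0.5 used 2000 variable genes, 20 principal components and 15 neighbours, without rule and mitochondrial genes. Myh11, Tagln, Actg2 and Col4a3 had no entry in the promoter table. The ratio step was tested on simulated data. Tools were Python 3.11.15, scanpy 1.11.5, numpy 2.4.6, scipy 1.17.1, pandas 2.3.3, scikit-learn 1.9.0, leidenalg 0.10.2, igraph 0.11.9 and matplotlib 3.10.9. Alternatives covered depth, mitochondrial share, the rule's thresholds, doublets, barcode weights, totals, low counts, the comparison side and resolution.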

Additional observations from a re-analysis of the deposited data

How the results depend on the processing

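The number of myoid barcodes followed the rule's thresholds: 146 with at most 5% mitochondrial UMIs, 163 with the 4 rule genes at 2% or more, 611 at 0.5% or more, and 311 with 0 UMIs of Ddx4 and Dazl, against 534. Against barcodes outside the germ class, 1371 genes were at least 2-fold higher and 3320 lower. By construction this side leaves out barcodes with at least 4 UMIs of Ddx4 and Dazl, but not germ cells below that limit. The dissociation stress list then had a median log2 ratio of -0.30. Ratios were 1.96 for Gli3, 0.77 for Fos, 0.88 for Tm4sf1 and 0.82 for Dcn. With at most 5% mitochondrial UMIs, Tm4sf1 had a ratio of 0.61 and Oxtr of 1.86, and without the smallest sub-cluster, an alternative chosen after seeing the data, Tm4sf1 had 0.73. The cause was not tested. Over all alternatives, 969 gene ratios stayed within the counting interval of the reported value, 494 left it and in 7 cases a gene past 2-fold changed direction. The 969 include 105 from the limit of 1 UMI, which cannot change a ratio. A further 104 came from leaving the rule genes out of totals, which scales all ratios alike. These 2 settings therefore say nothing on stability. Foxf1, Pdgfb and Sgcd, each with 1 UMI in the 534 barcodes, had values within 2-fold with the rule genes at 2% or more. These values, 1, 0.71 and 0.70, are bounds from setting a side at 0 to 3 UMIs, capped at 1. They do not show that the level of these 3 genes rose. Ryr3, with 4 UMIs in the 534 barcodes, then had a ratio of 0.61, which rests on at most these 4 UMIs. Resolution 1 gave 8 sub-clusters, against 5, and an 11-barcode sub-cluster with the same values remained among them. No paired analysis was possible because each group has 1 library. Depth limits genes of few UMIs, such as Gdnf, Kcnmb1 and Adra1b, and an absence in the smallest sub-cluster rests on 39612 UMIs.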
